A study of Mus musculus with 9 samples.

Results

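The genes described here are 7 genes of antigen presentation by major histocompatibility complex (MHC) class II: Cd74, H2-Aa, H2-Ab1, H2-Eb1, H2-DMa, H2-DMb1 and Ciita. They were taken by name from the 21909 gene symbols of 3 messenger RNA tables. The tissue was main olfactory epithelium of mice 4 weeks of age, from which 3 populations were sorted and given 1 poly-A RNA library apiece. The HBC library (horizontal basal cells) came from cells positive for an antibody to CD54, the protein of Icam1. The GBC library (globose basal cells) came from cells positive for a Neurog1-EGFP reporter, and the mOSN library (mature olfactory sensory neurons) from cells positive for an OMP-ires-EGFP reporter. ScriptSeq was the library kit for HBC, and the Illumina mRNA kit served GBC and mOSN, so that kit and population cannot be told apart wherever HBC is compared. The sources used here give neither the strain of the mice nor their number per library. Replicates are lacking, so differences are described without p-values.

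MHC class II molecules carry peptides from the endosomal pathway to the cell surface, where CD4 T cells read them. Dendritic cells, B cells and macrophages are the usual carriers, and interferon-gamma can induce the molecules in epithelial cells. An alpha and a beta chain pair in the endoplasmic reticulum around the invariant chain, the product of Cd74. Cathepsin S trims the invariant chain in the endosome, and the H2-DM heterodimer exchanges its last fragment for a peptide. Ciita encodes the coactivator that switches the whole set on. It binds no DNA itself and docks on the RFX, CREB and NF-Y proteins, which sit on the X and Y boxes of class II promoters.

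The promoter elements are shown first, because several of the class II windows searched share their letters. Cd74, H2-Ab1 and Ciita had no window to search. Windows of 300 bases, running from 250 before to 50 after an annotated start, were taken from RefSeq (build GRCm38.p6) for 4 of the 7 members, H2-Aa, H2-Eb1, H2-DMa and H2-DMb1. H2-DMb2, a neighbouring copy of H2-DMb1, is printed beside them because its level differed from theirs. Capitals mark 3 motifs, searched on both strands, whose letters were chosen with these windows in view. They are an X box (AACNNNTGATG), an extended Y box (TGATTGG, which holds the shorter core ATTGG) and the CREB palindrome TGACGTCA. The H2-DMa window has no capitals. By the offset between builds that its neighbours show, its annotated start lies kilobases upstream of the H2-DMa locus whose level is given below. The promoter of that locus was therefore not searched.
H2-Aa, chr17:34287774-34288073, minus strand: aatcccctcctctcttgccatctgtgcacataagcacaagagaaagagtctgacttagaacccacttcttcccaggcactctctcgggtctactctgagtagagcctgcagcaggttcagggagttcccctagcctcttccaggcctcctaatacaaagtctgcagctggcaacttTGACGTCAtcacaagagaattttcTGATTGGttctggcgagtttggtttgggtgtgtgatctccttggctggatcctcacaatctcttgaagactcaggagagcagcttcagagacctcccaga
H2-Eb1, chr17:34305617-34305916, plus strand: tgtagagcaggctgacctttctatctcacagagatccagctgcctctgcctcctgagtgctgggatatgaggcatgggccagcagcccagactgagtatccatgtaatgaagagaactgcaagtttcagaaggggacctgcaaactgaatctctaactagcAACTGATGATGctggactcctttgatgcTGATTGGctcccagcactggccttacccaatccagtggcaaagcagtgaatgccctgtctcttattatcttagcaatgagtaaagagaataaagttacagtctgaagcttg
H2-DMb1, chr17:34152941-34153240, plus strand: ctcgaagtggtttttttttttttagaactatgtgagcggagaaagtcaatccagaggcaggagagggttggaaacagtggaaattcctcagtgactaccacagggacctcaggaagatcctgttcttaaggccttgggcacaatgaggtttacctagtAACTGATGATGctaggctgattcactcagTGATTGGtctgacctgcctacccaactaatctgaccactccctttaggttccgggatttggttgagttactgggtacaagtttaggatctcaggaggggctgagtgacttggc
H2-DMb2, chr17:34144999-34145298, plus strand: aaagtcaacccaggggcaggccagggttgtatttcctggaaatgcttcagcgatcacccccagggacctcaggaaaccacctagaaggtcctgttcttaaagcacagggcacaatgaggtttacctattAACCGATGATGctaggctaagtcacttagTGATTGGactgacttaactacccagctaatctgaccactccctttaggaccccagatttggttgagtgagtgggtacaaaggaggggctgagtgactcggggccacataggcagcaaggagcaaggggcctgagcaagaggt
H2-DMa, chr17:34122582-34122881, plus strand: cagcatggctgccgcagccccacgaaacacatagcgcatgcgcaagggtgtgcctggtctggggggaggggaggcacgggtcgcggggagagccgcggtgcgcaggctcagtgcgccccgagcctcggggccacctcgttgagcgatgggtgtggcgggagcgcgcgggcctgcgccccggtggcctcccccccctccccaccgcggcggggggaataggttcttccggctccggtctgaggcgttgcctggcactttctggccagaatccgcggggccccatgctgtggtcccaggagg

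In H2-Eb1 the X box began 89 bases and the Y box 61 bases before the annotated start. In H2-DMb1 they began 92 and 63 bases before it, and in H2-DMb2 121 and 92 bases. The order and the spacing of the elements were thus alike in these 3 windows, at 28, 29 and 29 bases from the start of X to the start of Y. H2-Aa held the palindrome 74 bases and the Y box 50 bases before the start, without the X box letters used here. The windows of H2-Ob, H2-Oa and H2-Eb2, other class II genes, each held the extended Y box, and that of H2-Ob held the X box 26 bases ahead of it. Across all 32851 RefSeq windows of the same length, the extended Y box stood in 7.82%, its core in 37.4%, the X box in 0.615% and the palindrome in 1.79%. An X box followed within 40 bases by an extended Y box stood in 6 windows (0.0183%), of which 4 belong to H2-Eb1, H2-DMb1, H2-DMb2 and H2-Ob. The others belong to Cic and 1700048F04Rik. Since the letters were chosen with class II windows in view, these shares are no test of specificity for class II. A match describes letters and is not evidence of binding. The first window of H2-DMa says only that these letters are not in it, and nothing about the promoter of the measured H2-DMa locus. Its second window, at another annotated start also upstream of that locus, held the Y box core alone.

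**Figure D1:**
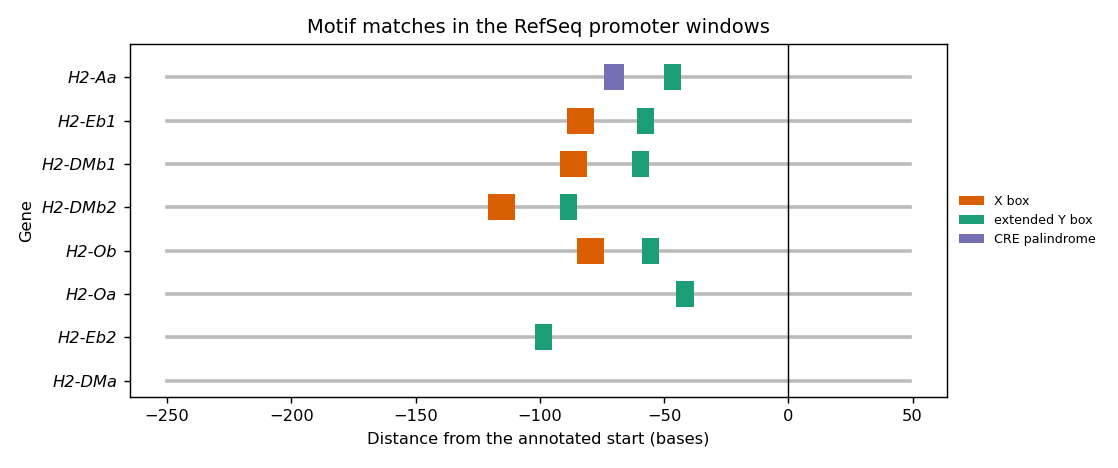
Positions of the X box, the extended Y box and the CREB palindrome (coloured bars) along the promoter windows of 8 class II genes, in bases from the annotated start (0). The X and Y boxes are 26 to 29 bases apart in H2-Eb1, H2-DMb1, H2-DMb2 and H2-Ob, and the first window of H2-DMa has no bar. That window lies upstream of the measured H2-DMa locus.

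Levels are given as FPKM (fragments scaled for transcript length and depth), a scale on which genes can be set beside each other, with the interval deposited by the authors and the number of fragments that this interval implies. The intervals cover counting error only. The implied fragments summed to between 16516700 and 18123443 per library.

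Cd74 and the 3 classical chains, H2-Ab1, H2-Aa and H2-Eb1, were among the most abundant messages of the HBC library and stood near or under 1 FPKM in GBC and mOSN. H2-DMa, H2-DMb1 and Ciita stood far lower in HBC. The 7 members summed to 3148 FPKM in HBC, to 4.71 in GBC and to 6.66 in mOSN. Of all FPKM they made up 1.86% in HBC, but 0.00256% in GBC and 0.00279% in mOSN. Cd74 ranked 2 among the 21909 symbols in HBC, H2-Ab1 ranked 7, H2-Aa 18 and H2-Eb1 40, whereas H2-DMb1 ranked 517, H2-DMa 554 and Ciita 7228.

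Cd74, on chromosome 18, encodes the invariant chain. It had 1228 FPKM in HBC (interval 1216 to 1239.7), 1.03 in GBC (interval 0.743 to 1.32, 51 fragments) and 0.994 in mOSN (interval 0.659 to 1.33, 35 fragments). HBC stood far above the other libraries, whose intervals overlapped. The classical chains followed the same order of libraries. H2-Ab1 (chromosome 17, 34400172 to 34406363, mm9), the beta chain of the I-A molecule, had 880.3 FPKM in HBC (interval 869.5 to 891), 0.378 in GBC (interval 0.220 to 0.535, 23 fragments) and 0.347 in mOSN (interval 0.147 to 0.548, 12 fragments). H2-Aa (34419696 to 34424716), its alpha chain, had 575 FPKM in HBC (interval 567 to 583), 0.339 in GBC (interval 0.113 to 0.565, 9 fragments) and 0.443 in mOSN (interval 0.163 to 0.724, 10 fragments). The GBC and mOSN intervals overlapped for each of these chains, while neither reached the HBC interval. H2-Eb1 (34442812 to 34453619), the beta chain of the I-E molecule, had 366 FPKM in HBC (interval 361 to 371), 0.164 in GBC (interval 0.0602 to 0.268, 10 fragments) and 0.177 in mOSN (interval 0.0518 to 0.302, 8 fragments).

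The peptide-loading genes stood below the chains in HBC and above them in the other libraries. H2-DMa (34272616 to 34275480), the alpha chain of the peptide exchanger, had 45.9 FPKM in HBC (interval 43.0 to 48.8), 1.61 in GBC (interval 1.15 to 2.07, 49 fragments) and 1.77 in mOSN (interval 1.21 to 2.33, 40 fragments). H2-DMb1 (34290136 to 34297174), its beta chain, had 48.4 FPKM in HBC (interval 46.2 to 50.6), 1.10 in GBC (interval 0.792 to 1.40, 52 fragments) and 2.81 in mOSN (interval 2.25 to 3.37, 100 fragments). It was the only member whose mOSN interval lay above that in GBC. Ciita (chromosome 16, 10488372 to 10527657), the coactivator gene, had 3.95 FPKM in HBC (interval 3.63 to 4.28, 589 fragments), 0.0863 in GBC (interval 0.0467 to 0.126, 19 fragments) and 0.121 in mOSN (interval 0.0639 to 0.178, 18 fragments). It was the lowest member in all 3 libraries.

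**Figure D2:**
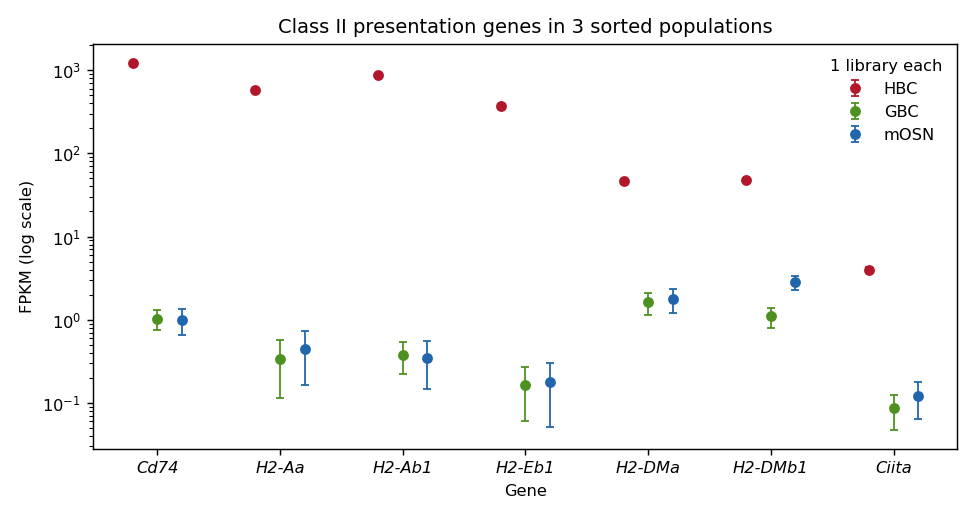
FPKM of the 7 members (x axis) on a log scale in the HBC, GBC and mOSN libraries, 1 library each, with bars for the deposited intervals. Every HBC point lies above the GBC and mOSN points of its gene, and the drop is shorter for H2-DMa, H2-DMb1 and Ciita than for the other 4 genes.

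Differences between libraries were expressed as log2((FPKM + 1)/(FPKM + 1)). On that scale the change of a low gene is understated. Calls needed a 4-fold difference on it (log2 ratio of 2 or more) and 5 FPKM or more in the higher library. By that rule 6 of the 7 members were higher in HBC than in GBC, against 6.86% of all genes and 16.5% of the 9101 genes reaching 5 FPKM in either library. The same count, 6 of 7, held for HBC against mOSN, where 7.07% of all genes and 15.8% of those reaching 5 FPKM were called. Ciita was the exception each time, since it stayed under 5 FPKM, and it was called with median-of-ratios scaling of the libraries. Its log2 ratio was 2.19 over GBC and 2.14 over mOSN. The median log2 ratio of the members was 8.30 over GBC and 8.28 over mOSN. The median gene stood at -0.46 and -0.63 in these comparisons, which share the HBC library. All 7 HBC intervals lay above the GBC and the mOSN intervals. That held for 29.7% of genes between HBC and GBC and for 32.3% between HBC and mOSN.

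Between the 2 neuronal libraries 1 of the 7 members had intervals that did not overlap. No member reached 5 FPKM in either library, so none of the 7 was open to a call. Of all genes, 2.82% were called higher in mOSN than in GBC and 1.25% higher in GBC. Their median log2 ratio was 0.05, and that of all genes was 0.24. The interval in mOSN was above that in GBC for 1 of 7 members, H2-DMb1 (log2 ratio 0.86), against 34.2% of genes. No member had a GBC interval above its mOSN interval, against 26.7% of genes. With 8 to 23 fragments behind each classical chain in these libraries, a modest difference was not detectable at this depth.

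The size of the drop divided the members into the chains with Cd74 on the one hand and H2-DM with Ciita on the other. In GBC, H2-Ab1 was left at 0.0429% of its HBC level, with an exact Clopper-Pearson 95% interval for the fragment ratio of 0.0272 to 0.0644%. H2-Eb1 was at 0.0448% (interval 0.0215 to 0.0824%), H2-Aa at 0.0590% (interval 0.0270 to 0.112%) and Cd74 at 0.0840% (interval 0.0625 to 0.110%). H2-DMa was left at 3.51% (interval 2.58 to 4.68%), H2-DMb1 at 2.26% (interval 1.68 to 2.98%) and Ciita at 2.18% (interval 1.31 to 3.44%). None of these 3 intervals reached those of the other 4 members. The mOSN library gave the same division. The shares of the HBC level there ran from 0.0394 to 0.0809% over H2-Ab1, H2-Eb1, H2-Aa and Cd74, and were 3.06% for Ciita, 3.86% for H2-DMa and 5.80% for H2-DMb1.

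The proportions among members therefore changed with the library. Of the members' summed FPKM, H2-DM made up 2.997% in HBC, but 57.6% in GBC and 68.7% in mOSN. H2-DMa stood at 0.0798 times the FPKM of H2-Aa in HBC (interval 0.0749 to 0.0850), but at 4.76 times in GBC (interval 2.31 to 11.01) and 4.00 times in mOSN (interval 1.96 to 8.96). H2-DMb1 stood at 0.0550 times H2-Ab1 in HBC, 2.90 times in GBC and 8.09 times in mOSN. The order was thus reversed, from chains above H2-DM to H2-DM above chains. Ratios among the classical chains and between the H2-DM chains changed less. H2-Eb1, a chain of another molecule, stood at 0.416 times H2-Ab1 in HBC, 0.434 times in GBC and 0.509 times in mOSN. H2-Aa stood at 0.653 times H2-Ab1 in HBC (interval 0.642 to 0.665), 0.898 times in GBC (interval 0.366 to 2.01) and 1.28 times in mOSN (interval 0.494 to 3.22), and the last 2 intervals span the first. H2-DMa stood at 0.948 times H2-DMb1 in HBC (interval 0.878 to 1.02), 1.47 times in GBC (interval 0.975 to 2.22) and 0.631 times in mOSN (interval 0.426 to 0.919). The GBC and mOSN intervals of this ratio do not overlap. Within HBC the order of the levels was Cd74, H2-Ab1, H2-Aa, H2-Eb1, H2-DMb1, H2-DMa and Ciita. Only the neighbours H2-DMb1 and H2-DMa overlapped in their deposited intervals. Cd74 had 0.674 times the FPKM of the 3 classical chains together in HBC.

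**Figure D3:**
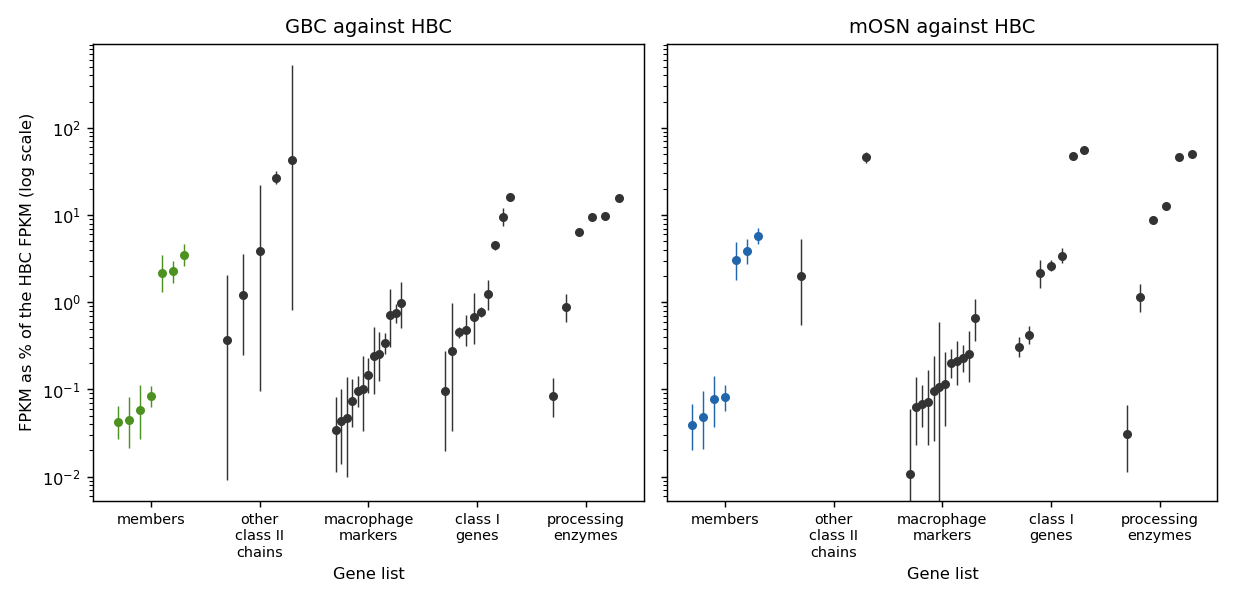
FPKM in GBC (left) and mOSN (right) as a percentage of the HBC FPKM, on a log scale, for the 7 members and 4 other gene lists, with exact 95% intervals for counting error. Genes listed at 0 are not drawn. The members fall into a lower set of 4 between 0.0394 and 0.0840% and an upper set of 3 between 2.18 and 5.80%.

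H2-DMb2 went further in the same direction. It is the neighbouring beta chain copy (34282361 to 34288040, mm9), and its split from H2-DMb1 is uncertain, since the sources used here do not say how fragments common to near-identical copies were assigned. It had 25.3 FPKM in HBC (interval 23.3 to 27.3), 6.81 in GBC (interval 5.83 to 7.79, 194 fragments) and 11.6 in mOSN (interval 10.2 to 13.0, 268 fragments). That left 26.9% of the HBC level in GBC and 45.8% in mOSN, and the gene was not called in any comparison. H2-DMb1 was 1.92 times as high as H2-DMb2 in HBC (interval 1.75 to 2.10), but 0.161 times in GBC (interval 0.116 to 0.220) and 0.243 times in mOSN (interval 0.191 to 0.306). The promoter windows of these copies, printed above, share the X and Y boxes at the same spacing.

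Of the 5 other class II chains, 1 was called higher in HBC than in GBC and than in mOSN. It was H2-Oa, the alpha chain of the H2-DM inhibitor, at 7.32 FPKM in HBC, at 0.0268 in GBC and at 0.148 in mOSN. Its partner H2-Ob, named after its values were seen, stood at 4.02 FPKM in HBC and at 0.0487 in GBC and was listed at 0 in mOSN. H2-Eb2 stayed under 1 FPKM in all 3 libraries, with 0.370 in HBC. H2-Ea-ps, the symbol under which the files list the I-E alpha chain, had 0.106 FPKM in HBC from 3 fragments and 0.0451 in GBC from 1 fragment, and was listed at 0 in mOSN. The beta chain of that molecule, H2-Eb1, had 22932 fragments in HBC. The class II genes differ in sequence between mouse strains, and the effect of strain on these values was not tested.

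The members lie in a stretch of chromosome 17 that also holds ordinary genes. Within 200 kb of H2-DMa, H2-DMb1, H2-Ab1, H2-Aa or H2-Eb1 the tables list 31 other genes, of which 19 reached 5 FPKM in some library. Of the 31, 7 were called higher in HBC than in GBC and 0 lower, and 7 were called higher in HBC than in mOSN and 1, AA388235, lower. Over all genes, 6.86% were called higher in HBC than in GBC and 7.07% higher in HBC than in mOSN. In the other direction, 6.44% were called higher in GBC than in HBC and 10.7% higher in mOSN than in HBC. All 7 that were called higher in HBC were shared by both comparisons. They were H2-Oa, the class I genes H2-K1 and H2-K2, and the peptide supply genes Tap1, Tap2, Psmb8 and Psmb9. Psmb8, a subunit of the immunoproteasome, stood at 60.9 FPKM in HBC and at 0.0582 in GBC and was listed at 0 in mOSN. Tap2, a peptide transporter, had 42.0, 0.204 and 1.44 FPKM. Brd2, a bromodomain gene next to H2-DMa, stood at 66.4 FPKM in HBC, at 35.8 in GBC and at 43.2 in mOSN, and the ribosomal gene Rps18 had 118, 152 and 68.7 FPKM. High values in HBC were therefore interleaved with genes of similar level in all 3 libraries.

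**Figure D4:**
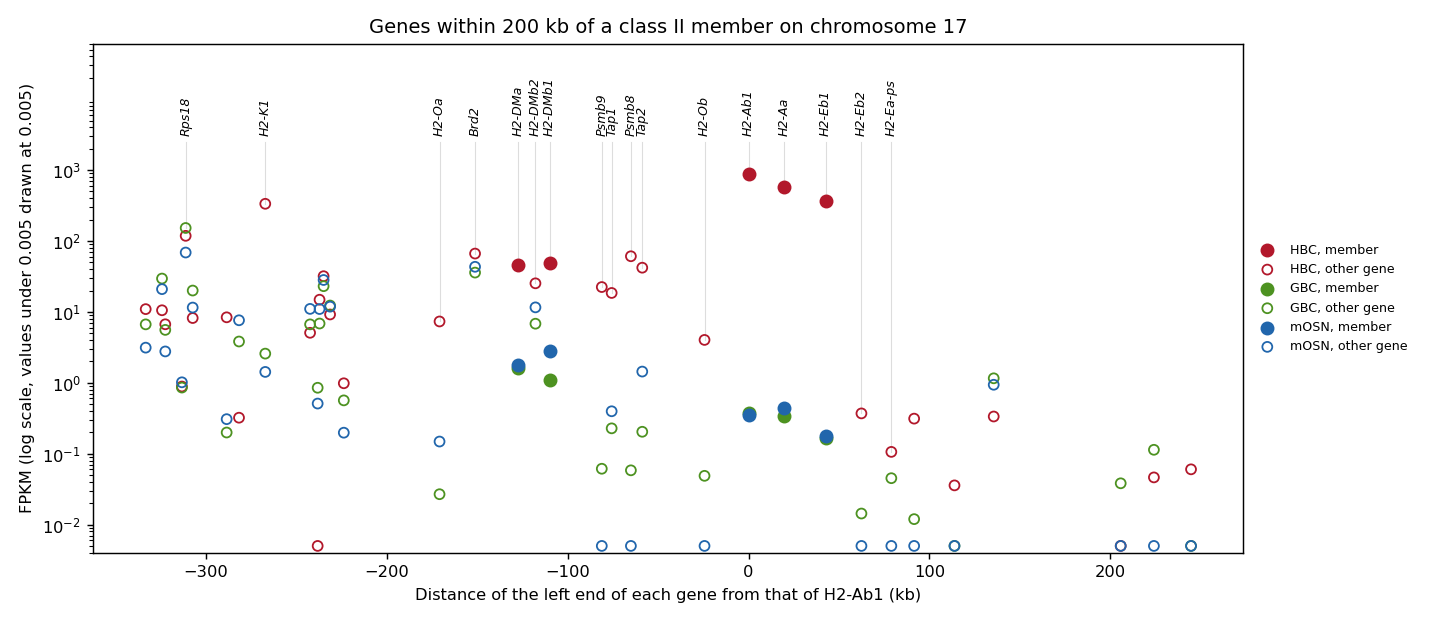
FPKM on a log scale of each gene within 200 kb of a member on chromosome 17, in the 3 libraries, against the distance of its left end from that of H2-Ab1. Filled circles are members and open circles other genes, and values under 0.005 are drawn at 0.005. H2-Ab1, H2-Aa and H2-Eb1 stand between 366 and 880.3 FPKM in HBC and under 1 FPKM in GBC and mOSN, while Brd2 and Rps18 are close together in all libraries.

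Genes that process antigen for class II were also high in HBC. All 6 were called higher in HBC than in GBC, and 4 of 6 higher in HBC than in mOSN. Ctss, the cathepsin that trims the invariant chain, stood at 638 FPKM in HBC, at 0.534 in GBC and at 0.197 in mOSN, which left 0.0837% and 0.0308% of its HBC level. Ifi30, a thiol reductase of the endosome, had 111, 0.976 and 1.27 FPKM. The general lysosomal proteases kept a larger share. Ctsd stood at 369 FPKM in HBC, at 23.3 in GBC and at 46.9 in mOSN, and Ctsl had 97.3, 9.61 and 8.56 FPKM. Of the 3 genes of class II turnover, none was called higher in HBC, and March8, a ubiquitin ligase gene, was called higher in GBC than in HBC, with 9.74 FPKM in HBC against 43.0 in GBC and 40.1 in mOSN. March1, a related ligase gene, went the other way at 3.604 FPKM in HBC, at 0.103 in GBC and at 0.0630 in mOSN, and stayed under the 5 FPKM that a call needs. The remaining gene, listed as 2010106G01Rik, had 12.3, 2.43 and 4.53 FPKM and just missed the call over GBC (log2 ratio 1.96).

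The factors that bind class II promoters were split by kind. The 7 RFX, NF-Y and CREB genes were present in every library, between 1.68 and 13.3 FPKM in HBC, 1.54 and 13.6 in GBC and 2.05 and 17.4 in mOSN. None of them was called. Rfxap was lower in HBC, with 2.23 FPKM, than in GBC (3.70) or mOSN (7.32). Some of the others were also lower in HBC than in either library, and the rest had their highest value in HBC. The other 3 of the 10 genes in this list are factors of blood cells, and all were called higher in HBC than in either library. Sfpi1, which encodes PU.1, stood at 54.7 FPKM in HBC, at 0.0387 in GBC and at 0.0229 in mOSN. Irf8 had 33.2, 0.0943 and 0.101 FPKM, and Irf4 had 7.86, 0.163 and 0.183 FPKM. The median log2 ratio of the 10 genes was 0.34 over GBC and 0.50 over mOSN.

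Of the 12 genes of the interferon-gamma pathway, 5 were called higher in HBC than in GBC and 5 than in mOSN, and none was called lower. Over all genes, 6.86% and 7.07% were called higher in HBC. Without a call, Jak1 stood lower in HBC, at 28.4 FPKM, than in mOSN, at 34.1. Ifngr1, the ligand-binding receptor subunit, stood at 64.5 FPKM in HBC, at 0.280 in GBC and at 1.66 in mOSN. Irf1 had 44.9, 0.689 and 1.44 FPKM, and the induced gene Gbp2 had 13.5, 0.0322 and 0.0876 FPKM. The median over the 12 was 2.19 over GBC and 2.20 over mOSN. Of 6 costimulation genes, 4 were called higher in HBC than in GBC and 3 than in mOSN. Cd86, a ligand of CD28, reached 25.1 FPKM in HBC and 0.0622 in GBC, and Cd80, another, reached 7.35 and 0.0327. Neither had a value above 0 in mOSN. All 10 class I genes were called higher in HBC than in GBC and 8 than in mOSN, with H2-D1 at 387, 1.75 and 1.19 FPKM. The rest, Tapbp and Erap1, had HBC intervals above those in mOSN but missed the 4-fold difference.

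The labelled cell type was checked against its markers. All 9 horizontal basal cell markers were called higher in HBC than in either library, with Krt14 at 451, Krt5 at 334 and Icam1, the gene behind the sort, at 136 FPKM. They summed to 1501 FPKM in HBC, to 2.09 in GBC and to 3.54 in mOSN. Because cells were sorted on its protein, Icam1 is not an independent check of the label. The neuronal precursor markers summed to 6.92 FPKM in HBC, to 408 in GBC and to 2.36 in mOSN, and the mature neuron markers to 141, 1056 and 8810 FPKM. Of the 5 precursor markers 3 were called higher in GBC than in HBC, and all 6 mature neuron markers higher in mOSN than in HBC. Markers of sustentacular cells, the supporting cells, summed to 1779.6, 37.8 and 144 FPKM. Of these 6 markers 3 were called higher in HBC than in either library, Cbr2 (881 FPKM), Cyp2f2 (748) and Ugt2a1 (135). Cyp2g1, at 11.1 FPKM in HBC and 46.1 in mOSN, and Cyp1a2, at 1.99 and 5.14, were higher in mOSN, without a call. Markers of the professional antigen-presenting cells were present in the same HBC library. CD54 is known to be carried by many white blood cells and by endothelium as well as by basal cells. All 13 macrophage markers were called higher in HBC than in either library. They summed to 2087 FPKM in HBC, to 4.02 in GBC and to 3.08 in mOSN, and C1qb, a complement gene, had 311, 0.108 and 0.198 FPKM. All 7 pan-leukocyte markers were higher too, with sums of 938, 11.2 and 2.87 FPKM. Of 11 dendritic and Langerhans cell markers, 5 were called higher in HBC, with sums of 95.7, 9.45 and 12.7 FPKM. Itgax, the integrin CD11c, had 27.9 FPKM in HBC and the migratory marker Ccr7 had 20.1, and 6 of the 11 were listed at 0 in GBC and 6 in mOSN. Zbtb46 went the other way, at 3.01 FPKM in HBC, at 9.38 in GBC and at 12.6 in mOSN, and made up nearly all of the sums in those libraries. Of 9 B cell markers, 1 was called, Cd79a with 7.39 FPKM, and the sum in HBC was 25.8 FPKM. Of 9 T cell markers, 6 were called over GBC and 5 over mOSN, with a sum of 107 FPKM in HBC. The 7 endothelial markers were all under 5 FPKM, so none was open to a call. They summed to 14.5, 2.12 and 1.17 FPKM, and all 7 had HBC intervals above those in GBC and in mOSN. Pecam1 was the highest, with 4.805 FPKM in HBC. None of the markers in these lists was at 0 in HBC. In bulk samples, fewer cells of a type and less RNA per cell cannot be told apart, and the part of each cell type in the class II values of HBC was not tested.

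The marker lists also show what is left in the neuronal libraries. In GBC the 13 macrophage markers stood at 0.0347 to 0.985% of their HBC level (median 0.148%), and the 9 basal cell markers at 0.0335 to 0.327% (median 0.167%). The 4 lower members, at 0.0429 to 0.0840%, lay inside both ranges, and H2-DMa, H2-DMb1 and Ciita, at 2.18 to 3.51%, lay above both. In mOSN the macrophage markers ran from a listed 0 to 0.654% and the basal cell markers from 0.0327 to 0.603%. H2-DMa, H2-DMb1 and Ciita, at 3.06 to 5.80%, were again above. Other lists held shares as large. In GBC the B cell markers ran from a listed 0 to 38.9% (median 5.57%), the T cell markers from a listed 0 to 4.70% (median 0.838%), the pan-leukocyte markers from 0.0990 to 7.18% (median 0.290%, with Coro1a highest) and the endothelial markers from 2.05 to 26.7%. In mOSN the B cell markers reached 28.1%, the T cell markers 14.4% and the endothelial markers 16.4%, while the pan-leukocyte markers stayed at or under 0.895%. The B cell and endothelial markers were at most 7.39 FPKM in HBC. These ranges are over genes of 1 library each and carry no test.

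The 8 other genes closest to the median profile of the members were drawn from 10334 genes of at least 5 FPKM in some library. Likeness was the Euclidean distance in log2(FPKM + 1) over the 3 libraries. In order they were Il1b (distance 0.272), Krt14 (0.325), Krt17 (0.373), C1qb (0.475), Krt5 (0.616), C1qa (0.638), Cd83 (0.698) and Laptm5 (0.711). The list mixes the basal keratins Krt14, Krt17 and Krt5 with genes of white blood cells. Il1b, an inflammatory cytokine gene, stood at 403 FPKM in HBC, at 0.615 in GBC and at 0.405 in mOSN. Cd83, a gene of mature dendritic cells and activated lymphocytes, stood at 239.9 FPKM in HBC, at 0.0893 in GBC and at 0.512 in mOSN. The median profile had the level of H2-Eb1 in HBC (366 FPKM), far above H2-DMa, H2-DMb1 and Ciita, so the list does not describe those members. With 3 libraries, profiles that are high in HBC and near 0 elsewhere cannot be told apart by this measure.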

How the data were processed

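Poly-A RNA of 3 sorted populations was analysed, 1 library each, grouped by sample titles. The 3 samples of 5-hydroxymethylcytosine and 3 of 5-methylcytosine were not analysed here. Per the file headers, the deposited tables give FPKM per gene with a lower and an upper bound and a status, 1 table for each library. Bowtie, TopHat, Cufflinks and build mm9 are named in the submitters' processing notes, and the sources used here give no version, option or annotation. A table had 22345 rows for 21909 symbols, and rows of 1 symbol were added up. The 7 members had 1 row each, with status OK. Starts were raised by 1 to count from 1.

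Fragments were read from the deposited intervals, as the count n for which 2 times FPKM divided by the square root of n gives the half-width. Of rows with at most 100 fragments, 68.5 to 77.4% were within 0.03 of a whole number. Intervals of ratios between counts are exact (Clopper-Pearson, 95%) and cover counting error alone, because PCR copies are not independent molecules. Fragments per FPKM of 1 gene differed between libraries by up to 2.02-fold among the members (H2-Ab1, GBC over HBC), which the alternative with 1 conversion factor per gene removes.

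The members and the 17 other gene lists were chosen with earlier results of these data known. All 141 list symbols were matched, 4 by synonym. Named genes were the members, neighbours of at least 5 FPKM, up to 4 genes per list with the largest ratio, markers under 1 FPKM everywhere, and the 8 closest profiles, and 1 gene that this rule names is not reported here. The alternatives were pseudocounts of 0.1 and 5 FPKM, other filters, 3 rescalings, the highest row per symbol and intervals that do not overlap. The call rule was tested on data simulated with counting error alone, so that test does not cover differences between kits. Python 3.11.15, pandas 2.3.3 and SciPy 1.17.1 were used.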

Additional observations from a re-analysis of the deposited data

How the results depend on the processing

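The count of members called higher in HBC was 6 to 7 over the 9 alternatives, against GBC and against mOSN, with 7 when no filter on low values was set and with median-of-ratios scaling, where Ciita was called too. The count higher in mOSN than in GBC was 0 with no filter. Under the filters on low values no member reached the level a call needs in GBC or mOSN as deposited, so a count of 0 there shows nothing about stability. The median log2 ratio of the members, 8.30 over GBC and 8.28 over mOSN, was 10.08 and 10.05 with a pseudocount of 0.1 FPKM, 6.17 and 6.16 with 5 FPKM, 8.50 and 8.54 with libraries rescaled to a common sum, and 8.68 and 8.68 with median-of-ratios scaling. The shift of the last moved the median of all genes from -0.46 to 0.00 over GBC and from -0.63 to -0.10 over mOSN. Of 126 values of single members, 67 stayed within the interval of the deposited value, 59 left it and none of those called changed sign. Part of this was fixed in advance. The highest row per symbol could not differ, as each member has 1 row. A pseudocount cannot change a sign, and its values were set against an interval computed with 1 FPKM. The division between H2-DM with Ciita and the other members could change only with 1 conversion factor per gene. The other rescalings multiply all genes of a library alike and cannot alter it. With 1 conversion factor per gene the division held. The shares of the HBC level were then 0.0423 to 0.116% and 2.67 to 4.81% in GBC, and 0.0383 to 0.0872% and 3.35 to 5.63% in mOSN.

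Counts over all genes moved more. Those called higher in HBC than in GBC were 1503 as deposited, 643 with a pseudocount of 5 FPKM and 638 at 20 FPKM. Against mOSN they were 1549, 645 and 632. Those called higher in mOSN than in GBC were 618, 173 and 305, and 357 with a common sum. The share of HBC among all calls was 51.6% against GBC and 65.2% with median-of-ratios scaling. Against mOSN it was 39.7% as deposited and 51.7 to 54.1% with the 3 rescalings. The share of mOSN against GBC was 69.3% as deposited, 49.2% with a common sum and 53.1% with 1 conversion factor. No paired analysis was possible because each group has 1 library. Leaving out a library was not possible for the same reason. Between 8 and 23 fragments lay behind each classical chain in GBC and mOSN, which limits any comparison between those libraries.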
